A study of Mus musculus with 8 samples.

Results

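The Kruppel-like factors are a family of transcription factors that bind GC-rich and CACCC-type DNA elements through zinc fingers near their C-terminal end. Some members recruit CtBP or SIN3A corepressors, others act mainly as activators, and several take part in hepatic glucose metabolism, in glucocorticoid and circadian responses or in the activation of stellate and endothelial cells. m6A is a methylated adenosine within mRNA that the writer complex of METTL3, METTL14 and WTAP deposits, mostly in GGAC-type contexts, and it is known to affect the splicing, stability and translation of the transcripts that carry it. To ask how hepatic deletion of *Wtap* changed m6A on these transcripts, the peaks named for 10 Kruppel-like factor genes (*Klf3*, *Klf4*, *Klf6*, *Klf9*, *Klf10*, *Klf11*, *Klf12*, *Klf13*, *Klf15* and *Klf16*) were taken from each deposited peak list by gene symbol. Over both lists together 11558 genes had a peak, and 10 of them are described here.

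m6ARIP-seq, in which mRNA fragments captured by an antibody against m6A (IP) and the uncaptured starting fragments (input) are both sequenced, was performed on livers of 8-week-old C57BL/6 mice fed normal chow. Both genotypes carried floxed *Wtap* alleles. *Wtap*-HKO mice also carried *Alb*-Cre, whose albumin promoter drives recombination in hepatocytes. Whether *Wtap* stayed intact in the other cells of the liver was not tested here. The Wtap flox/flox mice, without the Cre, were the control. There were 8 libraries, with 2 IP and 2 input libraries for each genotype, and each replicate was RNA pooled from several mice.

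Each deposited list combines the replicates of a genotype, so no SD, no test across replicates and no read depth can be given for any value below. The comparisons are between 1 list of peaks for each genotype. The fold enrichment is the ratio of IP to input at a peak as deposited, and only peaks that passed the peak caller are listed, so that a position without a peak has no value rather than a value of 0. The *Wtap* transcript had 3 peaks in each list, which does not check the deletion. Peaks were listed in control livers for 5 of 7 hepatocyte markers (*Alb*, *Apoa1*, *Fgb*, *Cyp2e1* and *Hnf4a*) and in *Wtap*-HKO livers for 4 of 7 (*Alb*, *Apoa1*, *Ttr* and *Hnf4a*), with *Trf* absent from both lists. Of 16 markers of macrophages, endothelial cells, stellate cells and cholangiocytes, 8 had a peak in control livers and 13 in *Wtap*-HKO livers, while the lists as a whole named 9020 and 10634 genes. The lists give no expression levels. In whole liver, less m6A on each transcript and a changed mix of cells that hold the transcript cannot be told apart.

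The members held 27 peaks in control livers and 23 peaks in *Wtap*-HKO livers, which covered 9584 and 9404 exonic nt, respectively. All 10 genes had a control peak, while 8 had a *Wtap*-HKO peak. *Klf11* and *Klf12* were the genes without one. Of the 11558 genes of the series with a peak in either list, 9020 had a control peak and 10634 a *Wtap*-HKO peak. Fold enrichments ran from 1.45 to 43.9 in control livers (median 4.77, against 5.51 over all 15635 control peaks) and from 1.96 to 33.7 in *Wtap*-HKO livers (median 4.72, against 5.93 over all 19185 peaks). Peaks that shared at least 1 exonic base on the same strand were joined into a site. This gave 28 sites, of which 19 had peaks in both genotypes, 6 only in control and 3 only in *Wtap*-HKO livers.

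**Figure D1:**
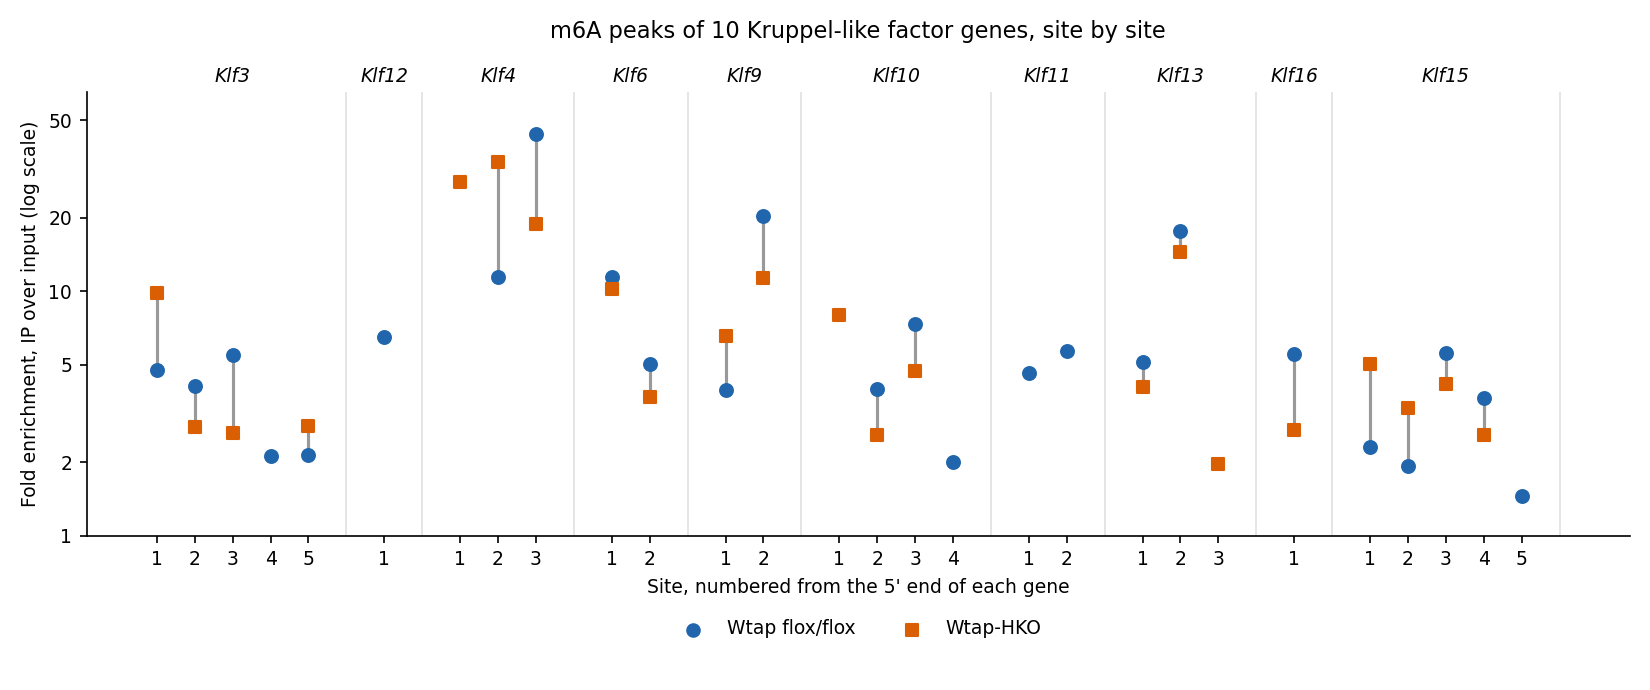
Fold enrichment of IP over input (log axis) at the 28 sites of the 10 genes, numbered from the 5´ end of each gene, with circles for Wtap flox/flox, squares for *Wtap*-HKO and a grey line joining both lists. Where a list has several peaks at a site the highest is drawn, there are no replicates to give error bars, and single symbols mark the 9 sites listed in 1 genotype only, including both *Klf11* sites and the *Klf12* site.

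Several of the peaks lay at transcript starts, and the bases there are shown for the members with a peak at or just past the annotated start. RefSeq windows on GRCm38.p6, from 250 bases before to 50 bases after a transcript start, were at hand for 8 of the 10 members. Peaks reached into the window of 3 of them, and the opening 30 bases of these transcripts are printed 5´ to 3´, with GGAC, the core of the usual m6A context, in capitals. The *Klf15* peaks began at 90462606, just past the printed bases.
*Klf3*, chr5:64803521-64803550, plus strand: gcagagcgagcggcgccggcgtcatgtgac
*Klf9*, chr19:23141226-23141255, plus strand: ggagaggcgcggcgcggcaGGACcaggggc
*Klf15*, chr6:90462576-90462605, plus strand: gtgagcggccggagagcggggagagcggcg

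The *Klf9* start held GGAC at base 20 and again at base 46, and the *Klf3* and *Klf15* starts held none within 50 bases. Among all 32851 windows, 18.9% had GGAC in the 50 bases after the start on the transcribed strand, and 33.3% had it on either strand (GTCC on the other). The longer motif GGACT, which contains GGAC, was in 5.76% of these stretches on the transcribed strand, 10.4% on either strand, and in 0 of the 8 members. A match describes letters only. Antibodies to m6A also bind a related methylated adenosine beside the mRNA cap, m6Am, and which of the marks lay under a peak at a transcript start was not tested.

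At 16 of the 28 sites there was exactly 1 peak in each list, so that the fold enrichments could be set against each other directly. Enrichment was lower in *Wtap*-HKO livers at most of these sites, and higher at 5 of them, in *Klf3*, *Klf4* and *Klf15*. The value was lower in *Wtap*-HKO livers at 11 of the 16 sites, while 49.4% of all 10499 such sites in the series were lower. The ratio of *Wtap*-HKO to control had a median of 0.721 over the 16 sites and of 1.01 over all such sites (interquartile range 0.667 to 1.58). It ran from 0.431 at the 3´ site of *Klf4* to 2.96 at the site next to it. The 16 sites lay in *Klf3*, *Klf4*, *Klf6*, *Klf9*, *Klf10*, *Klf15* and *Klf16*, with 4 each in *Klf3* and *Klf15*. Sites of the same gene are not independent units. How the libraries were scaled is not stated, so the ranks within each list were compared as well. The median change in percentile rank from control to *Wtap*-HKO was -18.0 for the members' sites and -3.33 for all sites.

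**Figure D2:**
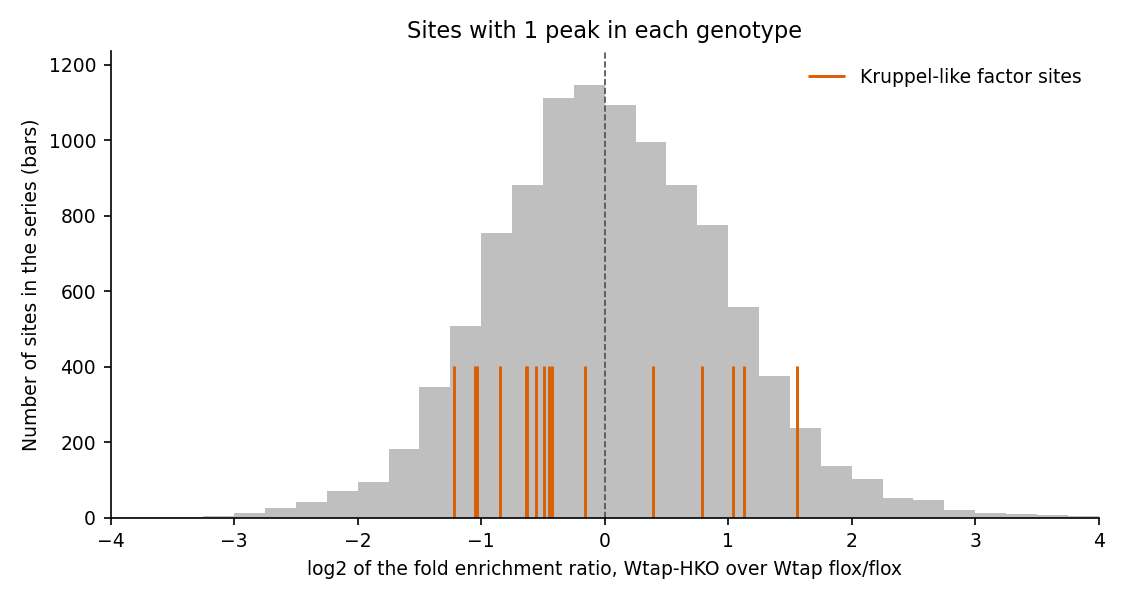
The log2 ratio of fold enrichment, *Wtap*-HKO over Wtap flox/flox, at sites with 1 peak in each genotype, with grey bars counting all 10499 sites of the series (bins of 0.25) and vertical lines marking the 16 Kruppel-like factor sites, whose height has no meaning. The members spread from -1.22 to 1.56 with 11 lines left of 0, all within the body of the distribution.

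Of the 27 control peaks, 21 shared exonic bases with a *Wtap*-HKO peak. In the series as a whole the share was 80.1%. In the other direction, a control peak lay under 20 of the 23 *Wtap*-HKO peaks, and the share over all *Wtap*-HKO peaks was 64.7%. The 6 control peaks without a counterpart lay in *Klf3*, *Klf10*, *Klf11* (both of its peaks), *Klf12* and *Klf15*. Their median fold enrichment was 3.37, against 5.04 for the 21 shared ones. The 3 *Wtap*-HKO peaks without a counterpart lay in *Klf4*, *Klf10* and *Klf13*.

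The deposited list of differential peaks, which holds 3870 peaks with p-values of the peak caller up to 3.16e-03, named 8 peaks in 6 of the members. Enrichment was lower in *Wtap*-HKO livers at 7 of these peaks, in 6 genes (*Klf3*, *Klf10*, *Klf11*, *Klf12*, *Klf13* and *Klf15*), and higher at 1 peak, in *Klf3*. Among all genes with a peak, 16.8% had a lower differential peak and 12.6% a higher one. These shares of genes do not allow for the number of peaks per gene. The members held 27 control peaks over 10 genes, and the series held 15635 over 9020 genes. At an absolute log2 fold change over 1, 3 lower peaks in 2 genes (*Klf11* and *Klf12*) and the higher peak of *Klf3* were left, where 8.90% and 8.25% of all genes had such a lower or higher peak. Lower differential peaks overlapped 8 of the 27 control peaks, against 15.2% of all control peaks. The median log2 fold change of the 7 lower peaks was -0.77, and that of all 2314 lower peaks was -1.02. The list gives 1 value per peak and none per replicate, so these differences cannot be set against the spread between replicates here.

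**Figure D3:**
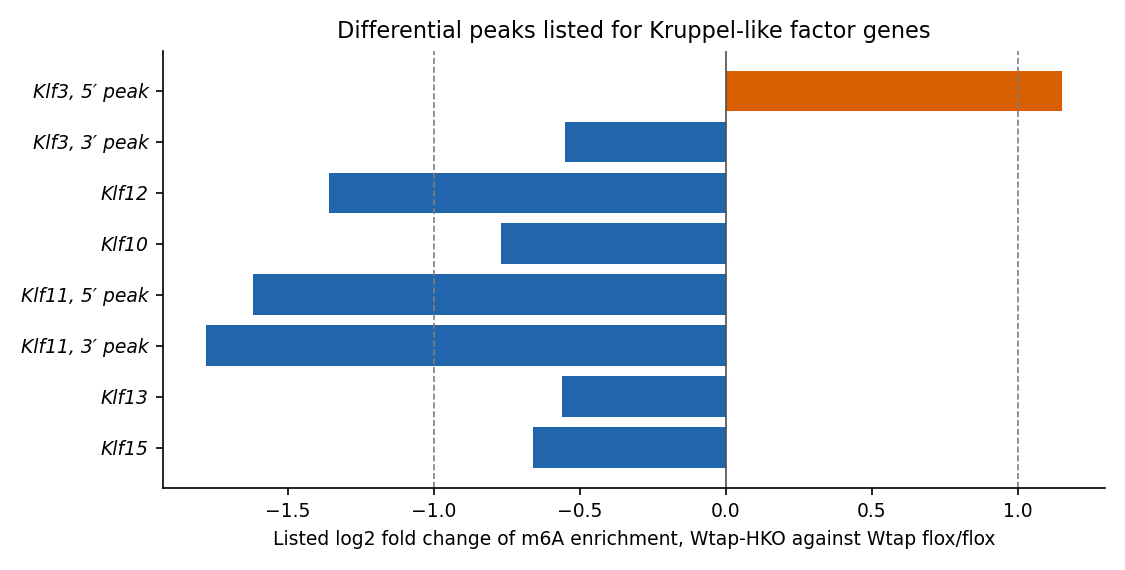
Log2 fold change of m6A enrichment in *Wtap*-HKO against Wtap flox/flox livers for the 8 differential peaks listed for the members, as deposited and without an error, with dashed lines at -1 and 1. The 5´ peak of *Klf3* stands alone to the right of 0 at 1.15, and both *Klf11* peaks and the *Klf12* peak lie left of -1.

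*Klf3* (ENSMUSG00000029178, chromosome 5, 64803521 to 64832901, plus strand) encodes a repressor that acts through CtBP and limits adipogenic and erythroid gene programmes. It had 5 control and 4 *Wtap*-HKO peaks, and its 5´ site and the internal sites toward its 3´ end differed in direction. At the 5´ end the control peak (64803508 to 64803748) had a fold enrichment of 4.77, and the *Wtap*-HKO peak (64803478 to 64812355, blocks of 314 and 17 nt joined across an intron) had 9.8. The differential peak there had a log2 fold change of 1.15. This site carries a limit, because a gene on the opposite strand (ENSMUSG00000097640) had a peak over the same bases, with a fold enrichment of 9.66 in control and 8.71 in *Wtap*-HKO livers. It shared 241 of the 241 exonic nt of the control peak and 300 of the 331 nt of the *Wtap*-HKO peak. Whether strand was kept in the libraries is not stated, and reads of the overlapping genes cannot be told apart without it. The same gene had a further peak in *Wtap*-HKO livers only (64803998 to 64804117, fold enrichment 12.2), which did not overlap *Klf3* peaks.

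Toward the 3´ end of *Klf3*, neighbouring peaks had lower enrichment in *Wtap*-HKO livers. The peak from 64827268 had a fold enrichment of 4.1 in control and 2.78 in *Wtap*-HKO livers, and the peak from 64829274 in control had 5.47, against 2.64 for its counterpart from 64829304. A differential peak of 870 exonic nt (64827148 to 64829723) spanned both, with a log2 fold change of -0.55. A weak control peak further on (64830773 to 64830892, fold enrichment 2.11) had no counterpart. The last site, 690 nt from the gene end, had 2.14 in control and 2.8 in *Wtap*-HKO livers and was not listed as differential. The 3´ part of the gene therefore held sites of both directions.

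*Klf12* (ENSMUSG00000072294, chromosome 14, 99866181 to 100285891, minus strand), known as a repressor of the AP-2 alpha gene, had a single control peak. It lay 8887 nt from the 3´ end of the span (99875068 to 99900135), with blocks of 247 and 54 nt on either side of an intron. Its fold enrichment was 6.52. The *Wtap*-HKO list had 0 peaks in *Klf12*. The differential list gave the same blocks a log2 fold change of -1.36. The p-value of the peak caller was 5.4e-04, the largest among the 8 differential peaks of the members.

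*Klf4* (ENSMUSG00000003032, chromosome 4, 55527137 to 55532475, minus strand) is a reprogramming factor that in tissue marks epithelial differentiation and quiescent endothelium. It carried the highest enrichments of the 10 genes in both genotypes, with opposite order along the transcript. The 3´ peak had a fold enrichment of 43.9 in control livers (55527771 to 55527980, 210 nt) and of 18.9 in *Wtap*-HKO livers (55527681 to 55528279, 599 nt). In rank this was a move from the 99.1 to the 85.8 percentile of the respective list. The middle peak had 11.4 in control livers over 121 nt (55530080 to 55530200) and 33.7 in *Wtap*-HKO livers over 927 nt (55530021 to 55530947). A peak 158 nt from the start (55532107 to 55532317, fold enrichment 28) was listed in *Wtap*-HKO livers only. These high fold enrichments were not the strongest calls. The log10 false discovery rate was -6.92 for the peak near the start and -8.23 for the middle control peak. It was -25.6 for the middle *Wtap*-HKO peak, and at the 3´ site -23.1 in control and -69.6 in *Wtap*-HKO livers. The 5´ control peak of *Klf3*, with a fold enrichment of 4.77, had -37.9.

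None of the *Klf4* sites was in the differential list, which holds only peaks that passed the caller. The ratios of 0.431 and 2.96 therefore come without a p-value. Both *Wtap*-HKO counterparts were longer than the control peaks. *Klf4* is also expressed outside hepatocytes, and the markers of other liver cells with a peak were more numerous in *Wtap*-HKO livers, as given above. Their part in the *Klf4* values was not tested.

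*Klf6* (ENSMUSG00000000078, chromosome 13, 5861489 to 5870393, plus strand), an early-response factor of injured liver and activated stellate cells, differed little between the lists. Its upstream peak had a fold enrichment of 11.4 in control livers (5864787 to 5865115) and 10.2 in *Wtap*-HKO livers (5864787 to 5865145). Its downstream peak had 5.04 (5867557 to 5867676) and 3.69 (5867497 to 5867766). The ratios were 0.895 and 0.732, and neither site was in the differential list, which does not show that they were equal.

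The members that bind SIN3A are *Klf9*, *Klf10*, *Klf11*, *Klf13* and *Klf16*. *Klf9* (ENSMUSG00000033863, chromosome 19, 23141226 to 23168129, plus strand), a glucocorticoid- and thyroid hormone-induced gene, had its strongest peak toward the 3´ end. That peak had a fold enrichment of 20.3 in control livers (23164726 to 23165953, 1228 nt) and 11.3 in *Wtap*-HKO livers (23164756 to 23165953, 1198 nt), a ratio of 0.557. At the transcript start printed above, control livers had 2 separate peaks, with fold enrichments of 2.1 (23141226 to 23141525) and 3.95 (23141645 to 23142094). *Wtap*-HKO livers had 1 peak over the whole stretch (23141226 to 23142094), with 6.54. The start was thus higher and the 3´ site lower in the *Wtap*-HKO list, while 0 *Klf9* peaks were listed as differential.

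*Klf10* (ENSMUSG00000037465, chromosome 15, 38291464 to 38300711, minus strand) is induced early by TGF-beta and is under clock control in liver. Its main peak had a fold enrichment of 7.37 in control livers (38295471 to 38296847, blocks of 694 and 233 nt) and 4.72 in *Wtap*-HKO livers (38295710 to 38296638). The differential list gave a log2 fold change of -0.77 there. The neighbouring peak had 3.99 (38296996 to 38297234) and 2.57 (38297026 to 38297234), with no differential listing. A control peak nearest the 3´ end (38294516 to 38294755, fold enrichment 2) had no counterpart. Near the 5´ end, a peak in 3 blocks of 33, 27 and 150 nt, 295 nt from the start of the span, was listed in *Wtap*-HKO livers only (38299763 to 38300416, fold enrichment 7.98). The RefSeq gene *Gm35248* spans all of its 210 nt, and its strand and exons were not used here.

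*Klf11* (ENSMUSG00000020653, chromosome 12, 24651371 to 24662782, plus strand), a relative of *Klf10* with a role in insulin gene regulation, showed the largest listed decrease of the members. Both of its control peaks, with fold enrichments of 4.63 (24655091 to 24655331) and 5.71 (24655510 to 24660395, blocks of 267 and 213 nt), were absent from the *Wtap*-HKO list. Their log2 fold changes in the differential list were -1.62 and -1.78. Over both genotypes together the enrichment at these peaks was 2.17 and 2.39. Neither peak lay near an end of the gene, the nearest edges being 3720 nt from the 5´ end and 2387 nt from the 3´ end. The lists do not say how small an enrichment the caller could still detect, so the missing peaks do not show that m6A was absent.

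*Klf13* (ENSMUSG00000052040, chromosome 7, 63886351 to 63938915, minus strand), which regulates the chemokine gene *Ccl5* in T cells, had the longest peak of the 10 genes. In control livers it covered 1555 nt near the 3´ end (63890116 to 63891670) with a fold enrichment of 17.7. In *Wtap*-HKO livers the same stretch held 2 peaks, of 1047 nt (63890265 to 63891311, fold enrichment 14.5) and of 91 nt (63891371 to 63891461, fold enrichment 6.54). The differential list gave the whole stretch a log2 fold change of -0.56.

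At the 5´ end of *Klf13* the differential list held no peak. Control livers had peaks of 3.14 (63938766 to 63938855) and 5.13 (63938138 to 63938497), and *Wtap*-HKO livers had 1 peak of 4.04 (63938019 to 63938766), which touched the former by its last base. This start differed from that of *Klf9*, since the *Wtap*-HKO value lay between the control values. A weak peak downstream of the main one (63887965 to 63888114, fold enrichment 1.96) was in the *Wtap*-HKO list only.

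*Klf16* (ENSMUSG00000035397, chromosome 10, 80567121 to 80577296, minus strand), a regulator of dopamine receptor genes, had 1 peak in each genotype. The fold enrichment was 5.53 over 238 nt in control livers (80568728 to 80568965) and 2.71 over 90 nt in *Wtap*-HKO livers (80568787 to 80568876). The ratio of 0.490 was among the lowest of the 16 sites, and the site was not listed as differential.

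*Klf15* (ENSMUSG00000030087, chromosome 6, 90461043 to 90491803, plus strand) promotes amino acid breakdown and gluconeogenesis in the fasted liver. It had 5 control and 4 *Wtap*-HKO peaks, with higher values upstream and lower values downstream in *Wtap*-HKO livers. The peak 30 nt from the RefSeq transcript start printed above had a fold enrichment of 2.3 in control livers (90462606 to 90464665) and 5.02 in *Wtap*-HKO livers (90462606 to 90464695). The next site had 1.93 (90465333 to 90465422) and 3.33 (90464843 to 90465452). These ratios of 2.18 and 1.73 were, with the highest ones of *Klf3* and *Klf4*, the highest among the 16 sites with 1 peak in each list.

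Downstream in *Klf15* the order turned. The strongest control peak of the gene had 5.6 (90466661 to 90467106), against 4.16 in *Wtap*-HKO livers (90466690 to 90467076), and the peak after it had 3.65 (90467225 to 90474110) against 2.59 (90467284 to 90467492). The control peak after these (90474229 to 90474318, fold enrichment 1.45) had no counterpart. That last site was the only one of *Klf15* in the differential list, with a log2 fold change of -0.66. It was also the weakest control peak of all members, and the enrichment over both genotypes was 1.21.

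**Figure D4:**
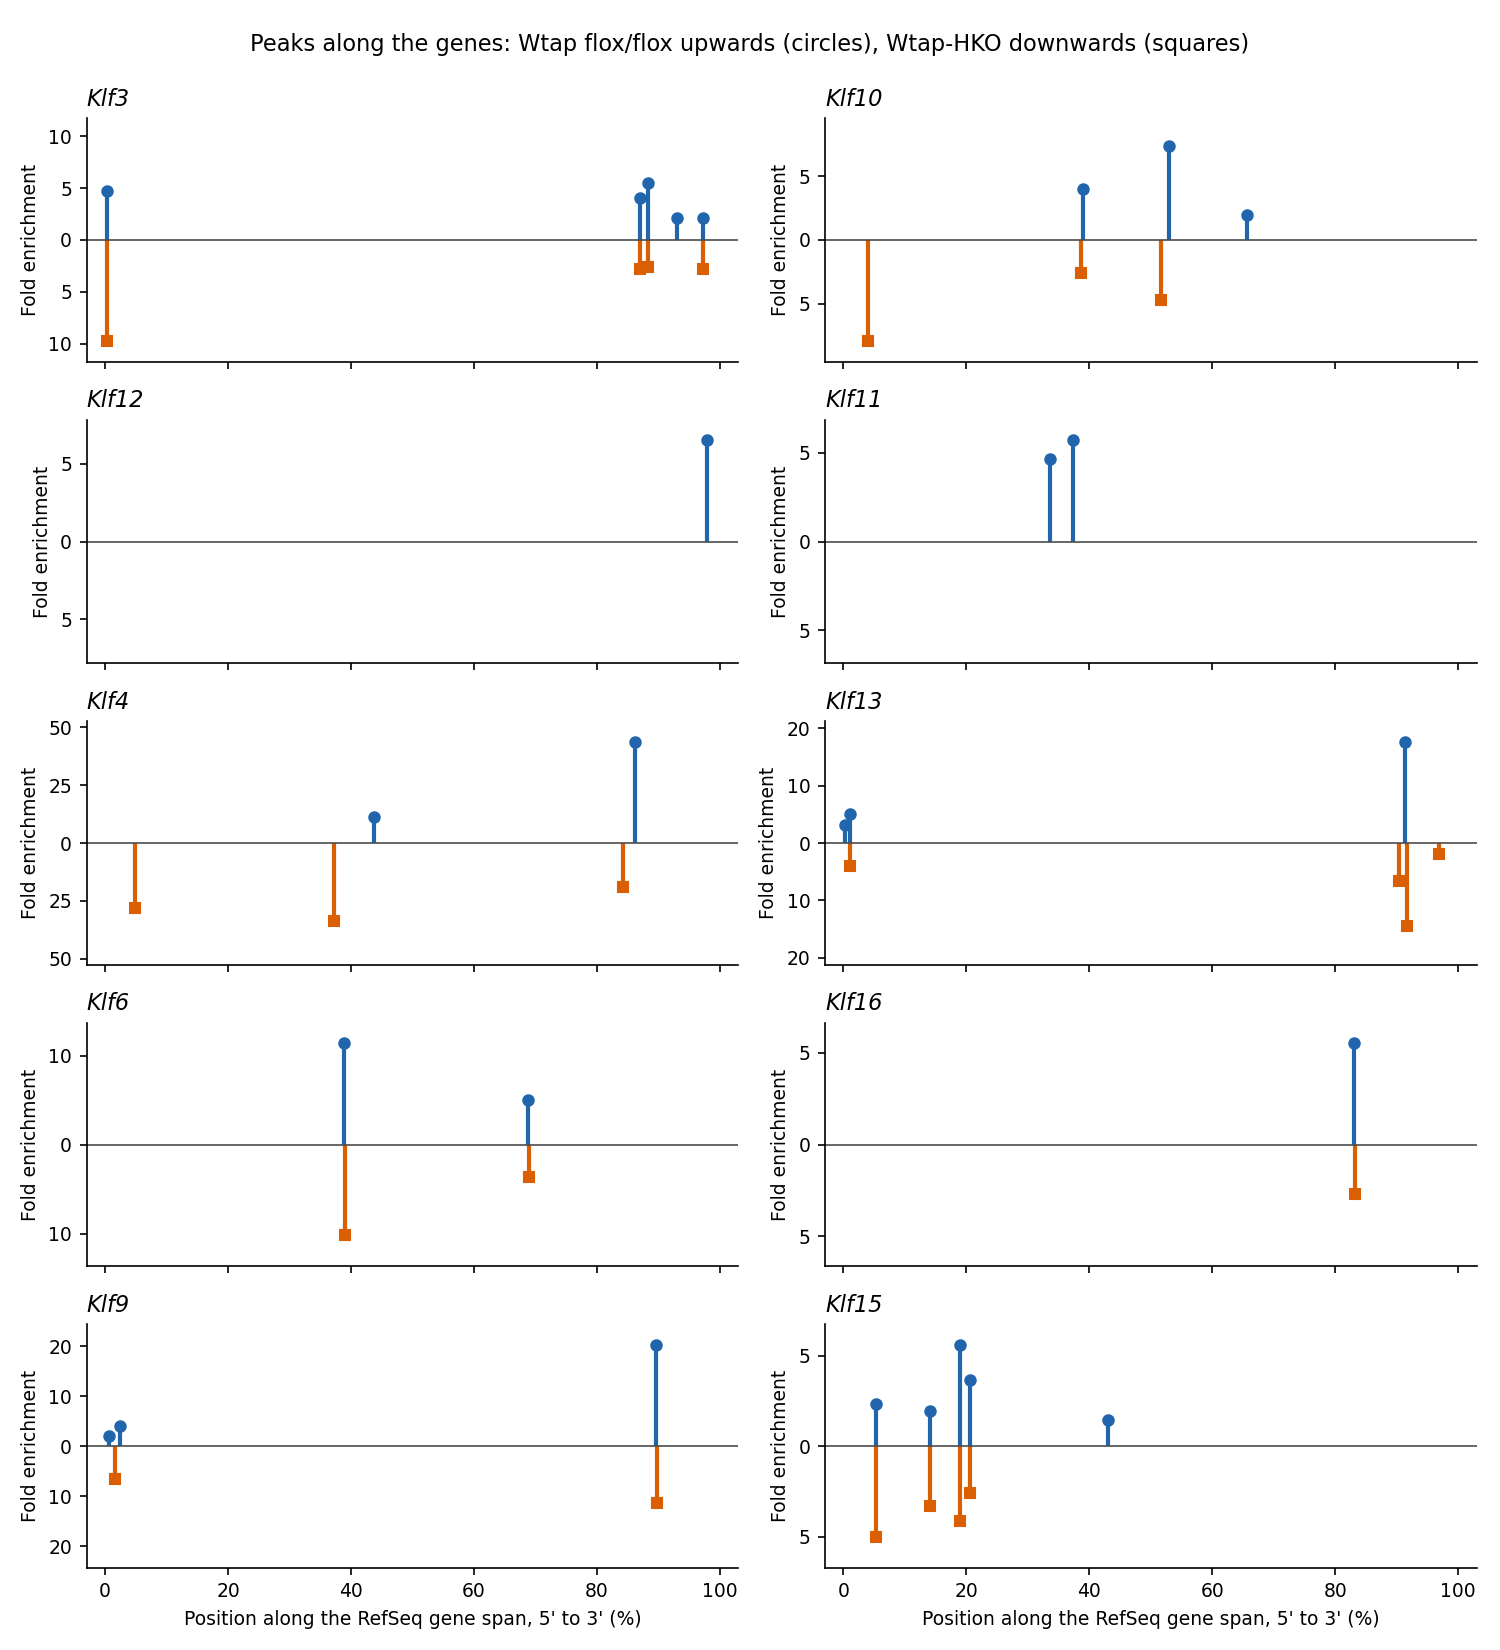
Peaks of the 10 genes placed by the midpoint of their longest exonic block along the RefSeq gene span (%, introns included), with fold enrichment drawn upward for Wtap flox/flox and downward for *Wtap*-HKO on linear axes that differ between the genes. In *Klf3*, *Klf4*, *Klf10* and *Klf15* the tallest downward stem stands nearer the 5´ end than the tallest upward stem, while in *Klf9* both stand toward the 3´ end.

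The position along the gene was then compared for the members. In each of the 5 genes with at least 2 sites of 1 peak in each list (*Klf3*, *Klf4*, *Klf6*, *Klf10* and *Klf15*), the log2 ratio was higher at the site nearest the 5´ end than at the site nearest the 3´ end. The values were 1.04 and 0.39 in *Klf3*, 1.56 and -1.22 in *Klf4*, -0.16 and -0.45 in *Klf6*, 1.13 and -0.49 in *Klf15*, and -0.63 and -0.64 in *Klf10*, where they differ by no more than rounding. Of 2395 genes of the series with such sites, 62.7% had this order. *Klf9* and *Klf13* also had shared sites toward both ends, but several peaks of a list fell in 1 site, so they were not counted. By the highest peak of each list, the ratio in *Klf9* was 1.66 at the 5´ site and 0.557 at the 3´ site. In *Klf13* it was 0.788 and 0.819, which is the opposite order. With 5 genes and no replicates, the order of the members is a description.

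Within 200 nt of the 5´ end of the RefSeq span lay 3 of the 27 control peaks (*Klf3*, *Klf9* and *Klf13*) and 4 of the 23 *Wtap*-HKO peaks (the same genes and *Klf4*). Over the series, these shares were 10.9% in control and 18.5% in *Wtap*-HKO livers. Within 200 nt of the 3´ end lay 0 peaks of either list, against 10.1% and 8.34% of all placed peaks. The *Klf15* span opens 1533 nt before its RefSeq transcript start. Measured from the transcript starts of the 8 members that have one, 4 of 23 control peaks and 5 of 19 *Wtap*-HKO peaks lay within 200 nt, where the shares over the series were 14.2% and 24.0%. The members therefore stood close to the series at their 5´ ends, with few peaks behind each count.

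The rest of the family and its partners were counted in the same way. Of 16 other Kruppel-like and Sp genes, 8 had a control peak and 7 a *Wtap*-HKO peak, while 8 had a peak in neither list. A differential peak was listed for 2. *Klf2*, a flow-responsive endothelial factor, was listed as higher in *Wtap*-HKO livers (log2 fold change 1.21), and *Sp3*, a ubiquitous GC-box factor, as lower (log2 fold change -1.33). At the *Klf2* site the fold enrichment was 20.2 in control livers (72320793 to 72321299) and 43.2 in *Wtap*-HKO livers (72320232 to 72321358). The *Wtap*-HKO list held a further *Klf2* peak upstream, with 14.2 (72319063 to 72319964). The *Sp3* peak had 6.04 in control (72938071 to 72938370) and 2.42 in *Wtap*-HKO livers (72938071 to 72938280). Of the Kruppel-like genes here without a differential peak, *Klf7* was higher in *Wtap*-HKO livers at both of its sites. Its fold enrichments were 8.34 and 12.3 in control and 13.7 and 13.1 in *Wtap*-HKO livers. *Klf1* was lower, with 6.48 in control and 3.99 in *Wtap*-HKO livers. Of 11 cofactors and ubiquitin ligases that act on Kruppel-like factors, 9 had a peak in each genotype (*Ctbp1*, *Ctbp2*, *Sin3a*, *Sin3b*, *Hdac2*, *Ep300*, *Crebbp*, *Kat2b* and *Fbxw7*). A differential peak was listed for 0 of them, and *Hdac1* and *Wwp1* had a peak in neither genotype. Among all genes with a peak in either list, 16.8% had a lower and 12.6% a higher differential peak.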

How the data were processed

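m6ARIP-seq of mouse liver gave 3 deposited lists. Per the labels, the methods and the submitters' processing notes, reads of 150 bp, paired-end, were cleaned with fastp 0.19.11 and aligned to GRCm38 with BWA 0.7.12, and peaks of IP over input and differential peaks were called with exomePeak. How replicates were combined and libraries scaled is not given in the sources used here. The authors deposited fold enrichment as a linear ratio of IP over input, the false discovery rates and p-values as log10 scores, and the difference between the genotypes as a log2 fold change. The lists hold no reads, so depth is unknown. Intervals, SD and tests across replicates were not possible.

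Peaks were selected by symbol, and starts are printed 1-based. Peaks were compared by exonic bases on the same strand (at least 1 nt), and a site is a connected set of overlapping peaks. Distances are genomic, to RefSeq spans or transcript starts on GRCm38.p6. Percentile ranks are within a list. The differential list was used as deposited. All members were named, and so were the other Kruppel-like genes with a peak. Sp genes and cofactors were named only with a differential peak or in a stated list. The members and lists were chosen with earlier results of these data known. Alternatives were other overlaps, thresholds, matching by position, other distances and other pairings. Overlaps and distances were tested on simulated data. Python 3.11.15, pandas 2.3.3, numpy 2.4.6 and matplotlib 3.10.9 were used.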

Additional observations from a re-analysis of the deposited data

How the results depend on the processing

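Of 33 alternative values, 31 stayed within 1.5 times the value given. Only the median ratio of the paired sites was checked for a change of direction, and it stayed under 1. With a threshold of 1 on the absolute log2 fold change, the lower differential peaks went from 7 to 3, because *Klf3*, *Klf10*, *Klf13* and *Klf15* lie under it. At a false discovery rate under 1e-05, 6 lower peaks were left, and the *Klf12* peak was lost. Within 500 nt of the 5´ end lay 5 control peaks in place of 3, since the windows are wider, and 5 *Wtap*-HKO peaks in place of 4. From the transcript starts, 6 control and 5 *Wtap*-HKO peaks lay within 500 nt. Requiring 50% of the exonic bases left 19 shared control peaks and 16 shared *Wtap*-HKO peaks. The median ratio of the paired sites was 0.743 over all 19 sites with peaks in both lists, 0.715 after division by the median of the series, and 0.710 without the *Klf3* site that has an antisense peak. This removal and the distances to transcript starts were chosen after seeing the data. No paired analysis was possible because the lists combine the replicates, and leaving out a replicate was not possible for the same reason. Unknown depth limits every statement on a missing peak.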

Other observations

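Matching by position on the same strand in place of the symbol found 29 control and 25 *Wtap*-HKO peaks. The additional peaks belong to genes without a symbol in the lists. In the *Klf15* span, ENSMUSG00000107451 had a fold enrichment of 5.11 in control livers (chromosome 6, 90478496 to 90478645) and 12.6 in *Wtap*-HKO livers (90478526 to 90478645). In the *Klf3* span, ENSMUSG00000106205 had 5.6 (chromosome 5, 64804340 to 64804518) and 5.42 (64804162 to 64804459). On the strand opposite to *Klf13*, ENSMUSG00000098708 had a control peak of 9.71 (chromosome 7, 63899429 to 63899698) and 0 *Wtap*-HKO peaks.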
